A study of Mus musculus with 6 samples.

Results

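NRF2 target and antioxidant genes were described in LPS-stimulated RAW 264.7 cells with and without 15(S)-HETE. The list held 42 mouse genes, chosen by name for their roles in thioredoxin, glutathione, NADPH, metal, superoxide and detoxification chemistry. A gene was measured where at least 1 array probe carried its symbol and no other, and it was read at the probe with the highest mean log2 intensity over all 6 samples. By this rule 31 of the 42 genes had 33 probes, among 13840 genes and 33012 probes on the array. Prdx4, Prdx5, Prdx6, Glrx, Gsto1, G6pdx, Pgd, Taldo1, Mt2, Nfe2l2 and Nqo1 had no such probe and were not analysed here, apart from a Prdx6 probe that is described separately.

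RAW 264.7 is a mouse macrophage-like line used as a model of primary macrophages. LPS, the endotoxin of Gram-negative bacteria, activates it, and 15(S)-HETE is formed when arachidonic acid is oxidized. The LPS group was 3 biological replicates stimulated with 1 μg/mL LPS, and the 15-HETE + LPS group was 3 replicates given 40 μM 15(S)-HETE followed by the same LPS. RNA was taken at 24 h, and each replicate pooled 6 wells. Every sample received LPS, so the comparison shows 15-HETE on an LPS background. No vehicle is named for the LPS-only wells, serum is 5% in the labels and 10% in the methods, and neither source says which arrays were hybridized together, so array set and treatment cannot be told apart.

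NRF2, encoded by Nfe2l2, is a transcription factor that KEAP1 holds for degradation through a CUL3 ubiquitin ligase. Electrophiles and oxidants modify KEAP1, NRF2 accumulates, and it binds antioxidant response elements near genes for glutathione synthesis, thioredoxin recycling, NADPH supply and detoxification. In macrophages these systems operate beside the NADPH oxidase and inducible nitric oxide synthase that activated cells use to make oxidants.

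Promoters are shown because this response element is the sequence that NRF2 binds, and the 6 below belong to genes that were measured. In RefSeq windows of GRCm38.p6, from 250 bases before to 50 after a gene's start, the core TGACNNNGC was searched on both strands. The core was found in 12.4% of all 32851 windows, in 10 of the 48 windows of the listed genes (20.8%) and in 6 of the 36 windows of those with a probe (16.7%). A looser core, TGANNNNGC, which contains every match of the first, was in 41.3% of all windows and in 36.1% of those of genes with a probe. Windows were found for 38 of the 42 genes, all but Gclc, Gsta4, Gsr and Prdx6. Some genes had several windows, and the 36 windows of genes with a probe belonged to 28 genes. Capitals mark the match, which lies on the gene's own strand in Me1 and on the opposite strand in the other genes, so that it reads in reverse complement there.
Txnrd1: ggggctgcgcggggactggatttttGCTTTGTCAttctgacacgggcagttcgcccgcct
Prdx1: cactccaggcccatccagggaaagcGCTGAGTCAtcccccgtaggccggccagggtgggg
Srxn1: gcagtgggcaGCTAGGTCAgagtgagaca
Gclm: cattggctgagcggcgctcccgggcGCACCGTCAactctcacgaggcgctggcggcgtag
Me1: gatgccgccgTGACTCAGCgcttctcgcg
Sod1: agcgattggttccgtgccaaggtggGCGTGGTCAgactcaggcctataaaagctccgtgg
The matches began 92 bases before the start site of the window in Txnrd1, 133 in Prdx1, 134 in Gclm, 56 in Sod1 and 6 in Me1, and 28 bases after it in Srxn1. For Txnrd1 that start lies inside the gene's span, chr10:82833951-82897724, and not at its first base. The stretches are at chr10:82859089-82859148 (plus strand, Txnrd1), chr4:116685441-116685500 (plus strand, Prdx1), chr2:152105542-152105570 (plus strand, Srxn1), chr3:122245398-122245457 (plus strand, Gclm), chr9:86695902-86695930 (minus strand, Me1) and chr16:90220681-90220740 (plus strand, Sod1). A match describes these letters only. On the array, Txnrd1, Sod1, Srxn1 and Prdx1 had log2 fold changes of 1.01, 0.87, 0.65 and 0.59, and Gclm and Me1 of 0.02 and -0.19.

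Intensities are given below in units of 1000 on the array's linear scale, after the authors' quantile normalization, and differences as log2 fold changes, 15-HETE + LPS minus LPS. Limma, fitted on the whole array, called none of the 31 genes: 0 were higher and 0 lower at a Benjamini-Hochberg adjusted p below 0.05. At an unadjusted p under 0.05 there were 8 higher and 6 lower, where 10.7% and 10.6% of all genes were higher and lower by the same threshold. The methods' t-test adjusted over all probes called 0. At the adjusted threshold the limma test called 0.509% of all probes higher and 0.442% lower, and 0.759% and 0.368% of all genes at their brightest probe. When limma's prior variance was allowed to depend on intensity, which is called the intensity trend here, 5 genes were called higher (Txnrd1, Gstm1, Txn2, Srxn1 and Cat) and 2 lower (Gclc and Sqstm1). That was 16.1% and 6.45% of the 31, beside 5.85% and 5.33% of all genes. The 31 genes were bright, with a median percentile of 92.0 among all probes by mean intensity, beside 63.9 for all genes. Among probes above the median intensity, tested alone, Prdx1 and Ephx1 were called higher beside Txn2, Txnrd1, Srxn1 and Gstm1, Cat was not, and the same 2 genes were lower. There 8.85% of genes were called higher and 8.03% lower. An exact permutation test on a single gene cannot go below p = 0.1 with 3 samples against 3.

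The median log2 fold change was 0.27 over the 31 genes and 0.02 over all genes. It was 0.26 over the measured macrophage markers described below, and ran from -0.04 to 0.35 over the lists of related genes. The samples of the groups did not overlap for 10 genes that were higher and 8 that were lower, or 32.3% and 25.8%, beside 17.5% and 17.7% of all genes. Both directions were present in every class with more than 3 measured genes. Class medians were 0.62 for 8 thioredoxin genes, 0.14 for 10 glutathione genes, -0.28 for 2 NADPH genes, 0.15 for 3 metal genes, 0.71 for 3 genes of superoxide and hydrogen peroxide and 0.04 for 5 genes of NRF2 signalling and detoxification. Without LPS replicate 1 the glutathione median was 0.014, the NADPH median -0.06, the metal median 0.39 and the NRF2 signalling and detoxification median 0.17. The last was -0.06 without LPS replicate 2.

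**Figure D1:**
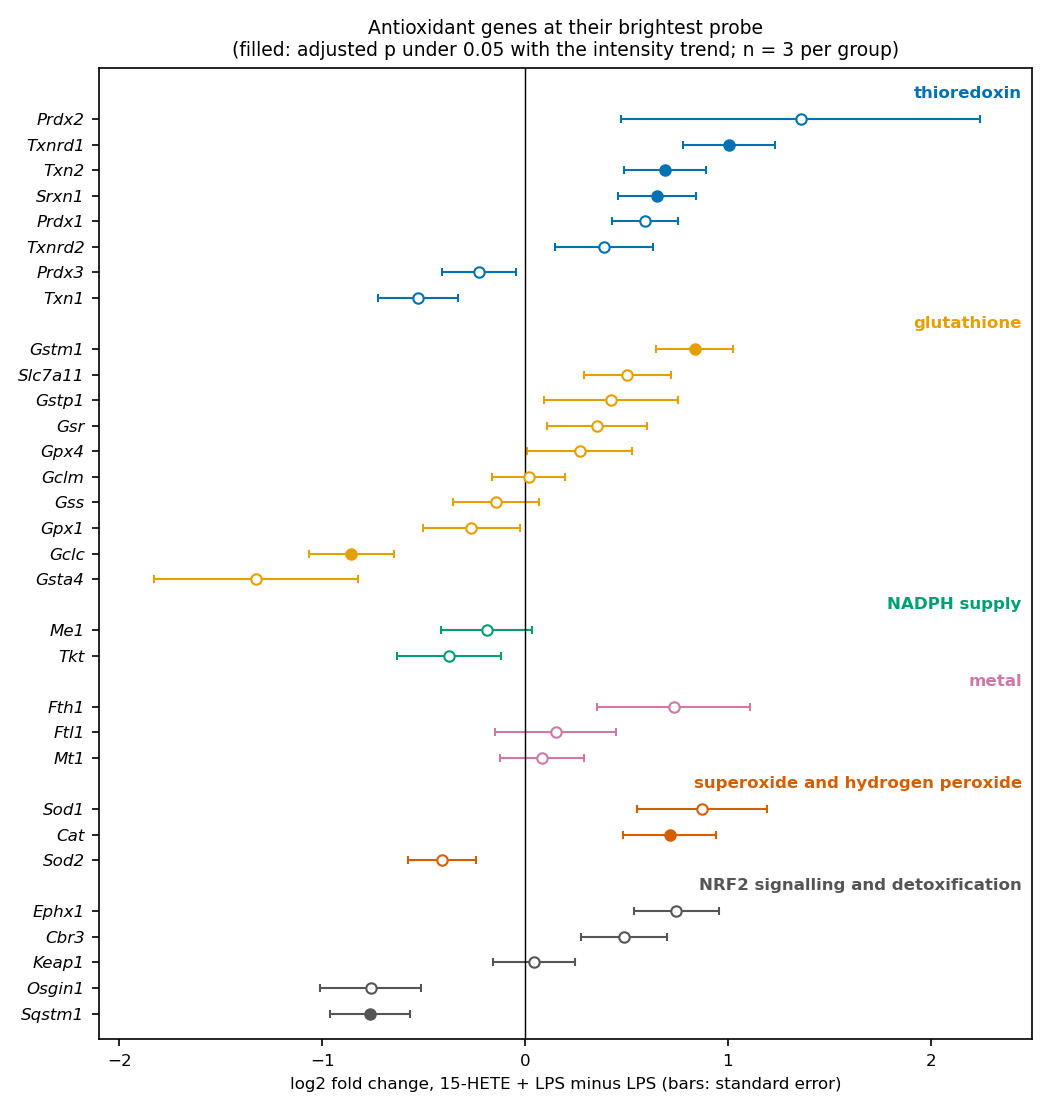
Log2 fold change (15-HETE + LPS minus LPS) of the 31 measured genes on the horizontal axis, with genes grouped by class on the vertical axis. Points are estimates from 3 samples per group, bars are standard errors, and filled points passed limma with the intensity trend (5 higher, 2 lower).

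LPS replicate 1 was the LPS sample farthest from the group's median for 21 of the 31 genes (67.7%), beside 47.3% of all probes. The median SD of log2 intensity among LPS samples was 0.279 for these genes and 0.319 for all probes, and among treated samples 0.107 and 0.354. Without LPS replicate 1 the test with the trend called 11 of the genes higher and 5 lower, beside 12.6% and 9.17% of all genes. With the trend, leaving out any other sample gave 1 to 4 higher and 1 or 2 lower. Those fits called 535 to 727 of all 33012 probes higher and 688 to 938 lower. Without the trend, limma called 0 probes on the whole array whenever 1 sample was left out.

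**Figure D2:**
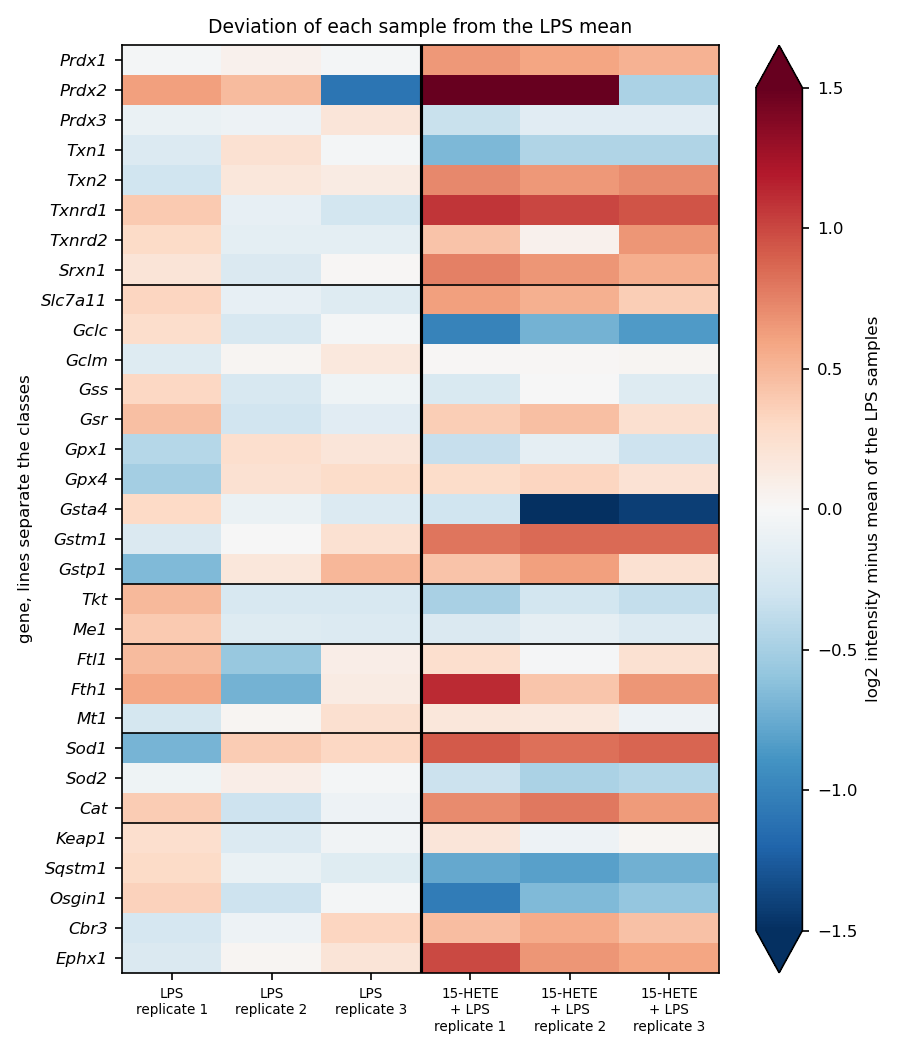
Log2 intensity of each sample minus the mean of the 3 LPS samples, with the 31 genes as rows and the 6 samples as columns. Red is above and blue below the LPS mean, colours stop at the ends of the scale, and among the LPS columns replicate 1 was farthest from the group median for 21 of the 31 genes.

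Cell identity was checked on marker lists. Of 13 macrophage genes 8 had a probe, at percentiles of 72.6 to 100 of mean intensity, and Cd68 and Csf1r were among those without. The summed intensity of the 8 was 2549 to 3305 in LPS samples and 3674 to 3810 with 15-HETE, without overlap, and 0 of the 8 were called with or without the trend. Ptprc, which encodes CD45, had a log2 fold change of 0.02. Summed markers of T and B cells, granulocytes and mast cells, erythroid cells and hepatocytes overlapped between the groups. The granulocyte and mast cell sum was mostly S100a8, which had a log2 fold change of 0.47 and overlapping groups. In that list Mpo (-1.38) and Elane (-1.08) were lower without overlap. Prtn3 (-0.74) and Cpa3 (0.14) overlapped. The 4 fibroblast markers summed to 21.3 to 26.8 with LPS and 12.7 to 14.8 with 15-HETE, and the 4 epithelial markers to 4.31 to 5.08 and 2.32 to 3.71. In the LPS samples the fibroblast sum was mostly Dcn (-1.30) and the epithelial sum mostly Krt8 (-1.05), both lower without overlap. Col1a1 (-0.49), Col1a2 (-0.13) and Pdgfra (-0.01) overlapped. In the epithelial list Cdh1 (0.61) was higher without overlap, and Epcam (0.42) and Krt18 (-0.04) overlapped. With the trend 1 gene was lower in each of the granulocyte, fibroblast and epithelial lists (Mpo, Dcn and Krt8). The summed intensity of every list was above 0 in all samples. The part of these shifts in the results was not tested, and in such bulk RNA fewer cells of a state and less RNA per cell cannot be told apart.

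The cytosolic thioredoxin reductase and the enzyme that repairs oxidized peroxiredoxin were both higher with 15-HETE in the test with the trend. Txnrd1, which reduces thioredoxin with NADPH, read 24.5, 17.1 and 15.4 in the LPS samples and 39.1, 37.2 and 35.9 with 15-HETE. All 3 treated samples were above all 3 LPS samples, with means of 19.0 ± 4.82 and 37.4 ± 1.61 (SD, n = 3). Its log2 fold change was 1.01 with a standard error (SE) of 0.23, and adjusted p was 0.0949 with limma and 0.00768 with the intensity trend. With the trend it was called in each of 6 fits that left out 1 sample, with adjusted p of at most 0.0421. Srxn1, sulfiredoxin, read 24.8, 18.6 and 21.8 with LPS and 36.3, 34.1 and 31.5 with 15-HETE. Its groups did not overlap, the log2 fold change was 0.65 (SE 0.19), and adjusted p was 0.144 and, with the trend, 0.0182. That call was kept in 1 of the 6 fits, the one without LPS replicate 1.

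The thioredoxins themselves had log2 fold changes on opposite sides of 0. The mitochondrial Txn2 read 28.9, 40.2 and 38.9 with LPS and 58.9, 55.7 and 58.1 with 15-HETE, a log2 fold change of 0.69 (SE 0.20, adjusted p = 0.141, 0.0177 with the trend). Every treated sample was above every LPS sample, LPS replicate 1 was the lowest, and the call with the trend was lost without any 1 of the treated samples. The cytosolic Txn1 was dimmer in all treated samples, 5.63, 6.54 and 6.54 beside 7.78, 10.5 and 8.81, at a log2 fold change of -0.53 that passed neither test (adjusted p = 0.219, 0.0771 with the trend). Txnrd2, the mitochondrial reductase, had a log2 fold change of 0.39 and overlapping groups.

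Peroxiredoxins reduce hydrogen peroxide with electrons from thioredoxin, and each Prdx probe is given here. Prdx1, the cytosolic form, had 2 probes. At the brighter the LPS samples were 926, 989.8 and 931 and the treated samples 1495, 1429.9 and 1367. At the dimmer they were 7.05, 7.41 and 8.22 and 15.1, 16.9 and 15.6. Neither probe's groups overlapped. The log2 fold change was 0.59 at the brighter (SE 0.16, 95% interval 0.19 to 0.99, adjusted p = 0.130) and 1.07 at the dimmer (SE 0.17, 95% interval 0.66 to 1.49, adjusted p = 0.0540). With the intensity trend the dimmer probe passed, at an adjusted p of 0.00192 and in 6 of 6 fits without 1 sample, and the brighter did not (0.0522). The study listed Prdx1 on these samples at 2.1-fold, and the fold was 2.1 at the dimmer probe and 1.51 at the brighter. The call of the dimmer probe is thus not independent of the study's listing. The study also measured this gene by quantitative RT-PCR. It reported higher expression with treatment, with a direction and size like those on its arrays. Those RT-PCR measurements were not analysed here. With the mean of both probes as the value, Prdx1 had a log2 fold change of 0.83 and was called by limma without the trend (adjusted p = 0.0351). That fit was adjusted over 13840 genes and called 362 of them higher. The limma fit over all probes called 105 genes higher at their brightest probe. The methods' test with unequal variances called the dimmer probe when adjusted for only those probes that met its 1.8-fold rule (adjusted p = 0.0224). That rule picks probes by the same difference, in the same samples, that is then tested. The value is thus not separate evidence for Prdx1. Adjusted over all probes, the same test did not call the dimmer probe (adjusted p = 0.0863).

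The mitochondrial Prdx3 read 128, 131 and 156 with LPS and 109, 123 and 122 with 15-HETE. All treated samples were below all LPS samples by a small margin, and the log2 fold change of -0.23 had a 95% interval of -0.66 to 0.21. Prdx2, another cytosolic form, was near the array's median intensity, which is 837 before division by 1000, and scattered widely. It read 0.752, 0.685 and 0.230 in the LPS samples and 3.01, 1.88 and 0.353 with 15-HETE, so the groups overlapped. Its log2 fold change of 1.36 had a standard error of 0.89 and a 95% interval of -0.79 to 3.51, and ran from 0.73 without treated replicate 1 to 2.28 without treated replicate 3. For Prdx6, which uses glutathione rather than thioredoxin, the annotation listed no probe, but the study's text names a probe for the gene. That probe read 8.71, 7.62 and 6.96 with LPS and 4.02, 4.04 and 3.51 with 15-HETE, so all treated samples were below all LPS samples. The log2 fold change was -1.01 (SE 0.18, adjusted p = 0.0671, 0.00642 with the trend, called in 6 of 6 fits without 1 sample). It is not counted among the 31 genes, and the study singled it out on these samples.

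**Figure D3:**
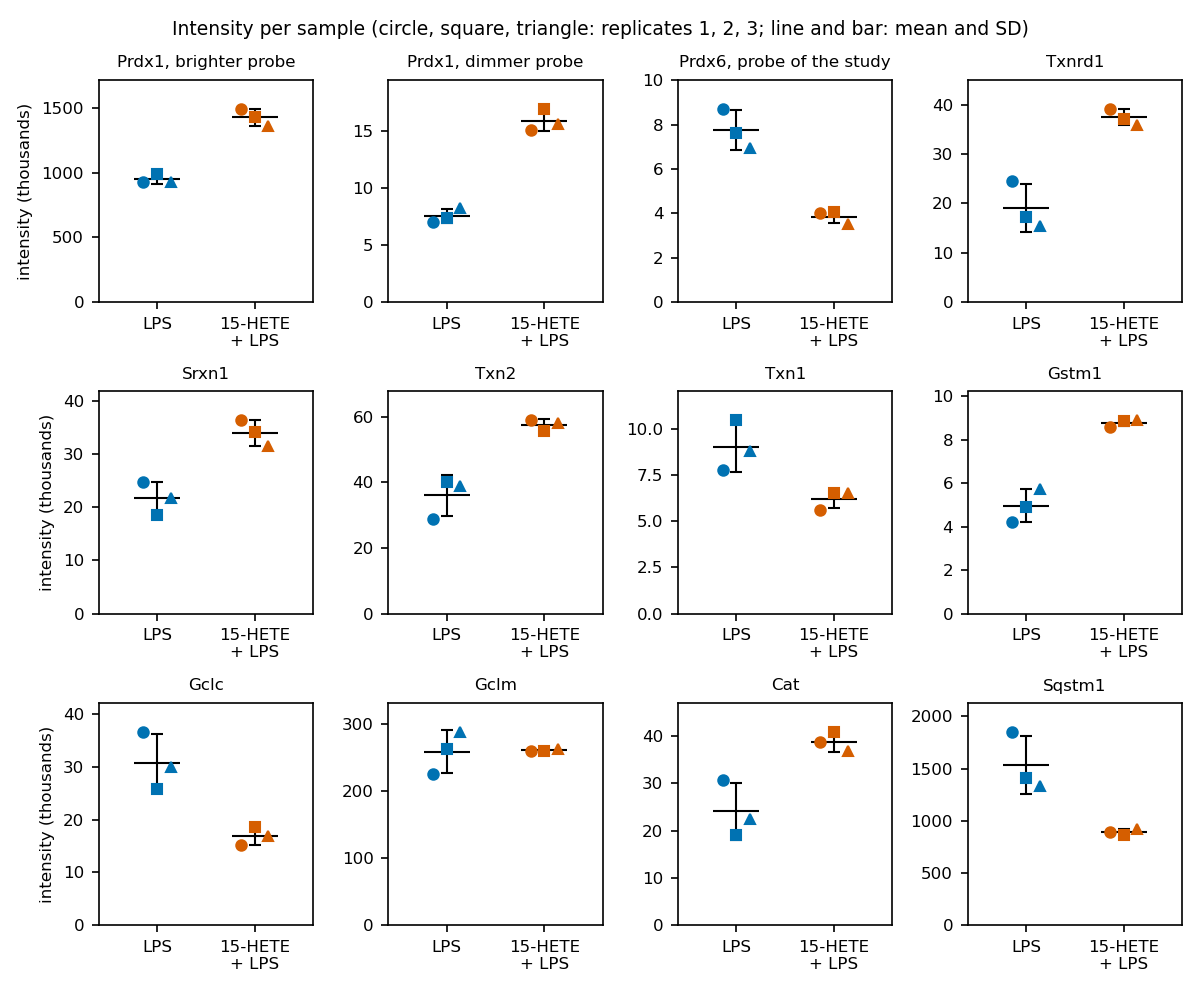
Intensity in units of 1000 on linear axes that start at 0, for each LPS and 15-HETE + LPS sample, with a panel for each of 12 probes. Circles, squares and triangles are replicates 1, 2 and 3, the line and bar are mean and SD, and the groups overlap only for Gclm.

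Glutathione synthesis starts with cystine uptake and with glutamate-cysteine ligase, whose catalytic and modifier subunits are Gclc and Gclm. Gclc was lower with 15-HETE in the test with the trend. It read 36.6, 25.8 and 29.9 with LPS and 15.2, 18.6 and 16.8 with 15-HETE, with means of 30.8 ± 5.47 and 16.9 ± 1.69 (SD, n = 3). The groups did not overlap. For Gclc the log2 fold change was -0.86 (SE 0.21, adjusted p = 0.107, 0.00964 with the trend), and all 6 fits with the trend and without 1 sample kept the call. Gclm read 225, 263 and 289 with LPS and 260.2, 261 and 263 with 15-HETE. Its log2 fold change of 0.02 had a 95% interval of -0.42 to 0.46, and the difference between the subunits was not tested. Gss, glutathione synthetase, was at -0.14 with overlapping groups. Slc7a11, the cystine transporter, was above all LPS samples in every treated sample, at a log2 fold change of 0.50 that passed neither test (adjusted p = 0.263, 0.0778 with the trend).

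Among the glutathione transferases, Gstm1 stood at 4.23, 4.88 and 5.75 with LPS and 8.58, 8.87 and 8.88 with 15-HETE. The treated samples, with an SD of 0.170, all lay above the LPS samples. The log2 fold change was 0.84 (SE 0.19, adjusted p = 0.0947, 0.0126 with the trend), and the call with the trend was lost without treated replicate 2 or 3. Gsta4, which conjugates lipid aldehydes such as 4-hydroxynonenal, was dim, 1.88, 1.43 and 1.33 with LPS and 1.25, 0.316 and 0.573 with 15-HETE. Its log2 fold change of -1.33 had a 95% interval of -2.54 to -0.11, did not pass (adjusted p = 0.222) and was -0.85 without treated replicate 2. Gstp1 was at 0.42 with overlapping groups, and at 0.095 without LPS replicate 1.

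Glutathione reductase, Gsr, and the peroxidases Gpx1 and Gpx4, the last of which reduces lipid hydroperoxides in membranes, had log2 fold changes of 0.36, -0.26 and 0.27, and their groups overlapped. In each of the 3, LPS replicate 1 stood apart from the other LPS samples. It was the highest for Gsr at 91.2 and the lowest for Gpx1 at 72.4 and for Gpx4 at 109, and without it the values were 0.58, -0.48 and 0.02.

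Of the genes that supply NADPH, the electron source of both reductases, Tkt and Me1 were measured. Transketolase, Tkt, read 541, 325 and 325 with LPS and 275, 319 and 300.3 with 15-HETE, a log2 fold change of -0.37 that was -0.13 without LPS replicate 1. Malic enzyme, Me1, was at -0.19. G6pdx and Pgd, the NADPH-forming enzymes of the pentose phosphate pathway, were among the genes not analysed here.

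The ferritin chains, which store iron, and the metal-binding metallothionein were among the brightest probes of the array. Fth1, the heavy chain, was at 2084, 858 and 1528 with LPS and 3047, 1865 and 2208 with 15-HETE. The groups overlapped, and Fth1 was the brightest of all probes in treated replicate 1 and stood at rank 287 in LPS replicate 2. Fth1 had a log2 fold change of 0.73 (SE 0.38, adjusted p = 0.346), which was 0.38 without LPS replicate 2 and 1.02 without LPS replicate 1, where the test with the trend called it (adjusted p = 0.0166). Ftl1, the light chain, was at 0.15 with a 95% interval of -0.58 to 0.88, and at -0.13 without LPS replicate 2. Mt1 had 2 probes, with log2 fold changes of 0.08 at the brighter, where the groups overlapped, and 0.80 at the dimmer, where they did not (adjusted p = 0.238). Under quantile normalization the brightest ranks hold the same values in every array, so these intensities follow rank.

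Of the enzymes that remove superoxide and hydrogen peroxide, Cat was higher with the trend and neither dismutase passed. Cat, catalase, read 30.7, 19.1 and 22.5 with LPS and 38.7, 40.9 and 36.8 with 15-HETE. The groups did not overlap, the log2 fold change was 0.71 (SE 0.23, adjusted p = 0.168, 0.0306 with the trend), and of the fits without 1 sample that without LPS replicate 1 alone kept the trend call. Sod1, the cytosolic copper-zinc superoxide dismutase, was at 60.6, 128 and 121 with LPS and 185, 174 and 179 with 15-HETE. All treated samples were above all LPS samples, and LPS replicate 1 was far below the other LPS samples. The log2 fold change of 0.87 (adjusted p = 0.212, 0.0612 with the trend) was 0.53 without that sample. Sod2, the mitochondrial manganese form, was at 827, 923 and 844 and 690.0, 621 and 645, with no overlap and a log2 fold change of -0.41 (adjusted p = 0.255, 0.137 with the trend).

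Keap1, the NRF2 inhibitor, had overlapping groups and a log2 fold change of 0.04 with a 95% interval of -0.45 to 0.54. Sqstm1 encodes p62, an autophagy receptor that binds KEAP1 and is itself an NRF2 target. It read 1850.4, 1408 and 1334 with LPS and 892, 863 and 921 with 15-HETE. The treated samples were all lower, and LPS replicate 1 was the highest. Sqstm1 had a log2 fold change of -0.76 (SE 0.20, adjusted p = 0.118, 0.0336 with the trend), and of the fits without 1 sample that without LPS replicate 1 alone kept the trend call. Osgin1, an oxidative stress-induced gene, had the same log2 fold change of -0.76 with no overlap and did not pass. The carbonyl reductase Cbr3 was at 0.49 and the epoxide hydrolase Ephx1 at 0.75, both with every treated sample above every LPS sample, and neither passed with the trend (adjusted p = 0.0846 and 0.0873).

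A further 120 genes of the same pathways were listed by role, and 99 of them had a probe. Limma called 1 of the 99 higher and 0 lower, beside 0.759% and 0.368% of all genes. With the trend 11 were higher and 7 lower, or 11.1% and 7.07%, beside 5.85% and 5.33% of all genes. The gene that rose was Idh1, the cytosolic isocitrate dehydrogenase, which forms NADPH. It read 7.26, 4.57 and 4.89 with LPS and 16.5, 18.6 and 18.5 with 15-HETE, a log2 fold change of 1.71 (SE 0.24, adjusted p = 0.0476). No treated sample was below 16.5 and no LPS sample above 7.26. The call was lost with a robust prior, with the methods' t-test and whenever 1 sample was left out, and adjusted p was 0.00118 with the trend.

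In the NADPH list 3 of 14 measured genes (21.4%) were higher with the trend and 0 lower, beside 5.85% and 5.33% of all genes. Beside Idh1 the higher genes were the mitochondrial Idh2, at a log2 fold change of 0.81, and the pentose phosphate epimerase Rpe, at 0.47. Shmt2, a mitochondrial serine hydroxymethyltransferase, was at -0.55 and did not pass. In the list of other NRF2 system genes, Ugdh, which makes UDP-glucuronic acid, was at 0.93 and the aldo-keto reductase Akr1b8 at 0.82, and both were higher with the trend. The study listed the same Ugdh probe on these samples, at the same 1.9-fold, so its call is not independent of that listing. Cul3, the scaffold of the ligase that KEAP1 serves, was at -0.81 (adjusted p = 0.102, 0.00819 with the trend). With the trend 2 of the 19 measured genes of the list were called higher and 1 lower. That was 10.5% and 5.26%, beside 5.85% and 5.33% of all genes. Blvra, biliverdin reductase, was at 0.38 and did not pass.

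Txnip, which binds and inhibits thioredoxin, read 1.05, 0.949 and 0.987 with LPS and 4.83, 2.83 and 2.59 with 15-HETE, a log2 fold change of 1.72 (SE 0.28, adjusted p = 0.0545, 0.00840 with the trend). Every treated sample was above every LPS sample. In this list of 15 measured thioredoxin fold and repair genes, the thioredoxin domain gene Txndc12 at 0.63 was also higher with the trend, Txndc9 at -0.48 was lower, and Glrx3, an iron-sulfur glutaredoxin, at -0.67 was not called. Among 24 other glutathione genes the transferase Gstt3 (0.59) and Hagh, a glyoxalase that frees glutathione (0.50), were higher with the trend. Mgst2, a microsomal transferase, at 0.92 and Oplah, the oxoprolinase of the glutathione cycle, at -1.61 did not pass.

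Of 17 other metal genes, the transferrin receptor Tfrc, which takes up iron, read 2.77, 2.53 and 1.90 with LPS and 7.26, 6.03 and 4.22 with 15-HETE. Its groups did not overlap, and its log2 fold change was 1.26 (SE 0.28, adjusted p = 0.0886, 0.0142 with the trend). Mtf1, the transcription factor that drives metallothionein genes, was at 0.73 and higher with the trend, and the zinc importer Slc39a10 at -0.70 was lower with it. The zinc importer Slc39a8 was at 0.90 but dim, and passed neither test. Slc30a5 and Slc39a14, zinc transporters named after their values were seen, were at -0.50 and -0.56 and also lower with the trend. The list so had 2 higher and 3 lower, or 11.8% and 17.6%, beside 5.85% and 5.33% of all genes.

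Sources of oxidants formed the last list, in which 0 of 10 measured genes were higher and 2 lower with the trend. That was 0% and 20%, beside 5.85% and 5.33% of all genes. Nos2, the inducible nitric oxide synthase, was at 25.5, 18.8 and 17.8 with LPS and 12.1, 9.08 and 10.6 with 15-HETE, a log2 fold change of -0.96 (SE 0.23, adjusted p = 0.102, 0.0102 with the trend). Ncf1, the p47phox subunit of the NADPH oxidase, was at 104, 86.6 and 73.4 with LPS and 52.1, 46.3 and 49.2 with 15-HETE, a log2 fold change of -0.83 (SE 0.20, adjusted p = 0.107, 0.00866 with the trend). For both genes all treated samples were below all LPS samples. Rac1, a GTPase that activates the oxidase, was at -0.50 and Nox4 at -0.62, and neither passed. Of the remaining measured genes, named after their values were seen, Cybb was at 0.14, Cyba at 0.04 and Ncf4 at 0.01. Rac2 and Gch1 were at -0.04 each and Nox1 at -0.02. The groups overlapped for each of these, and the list median was -0.04.

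**Figure D4:**
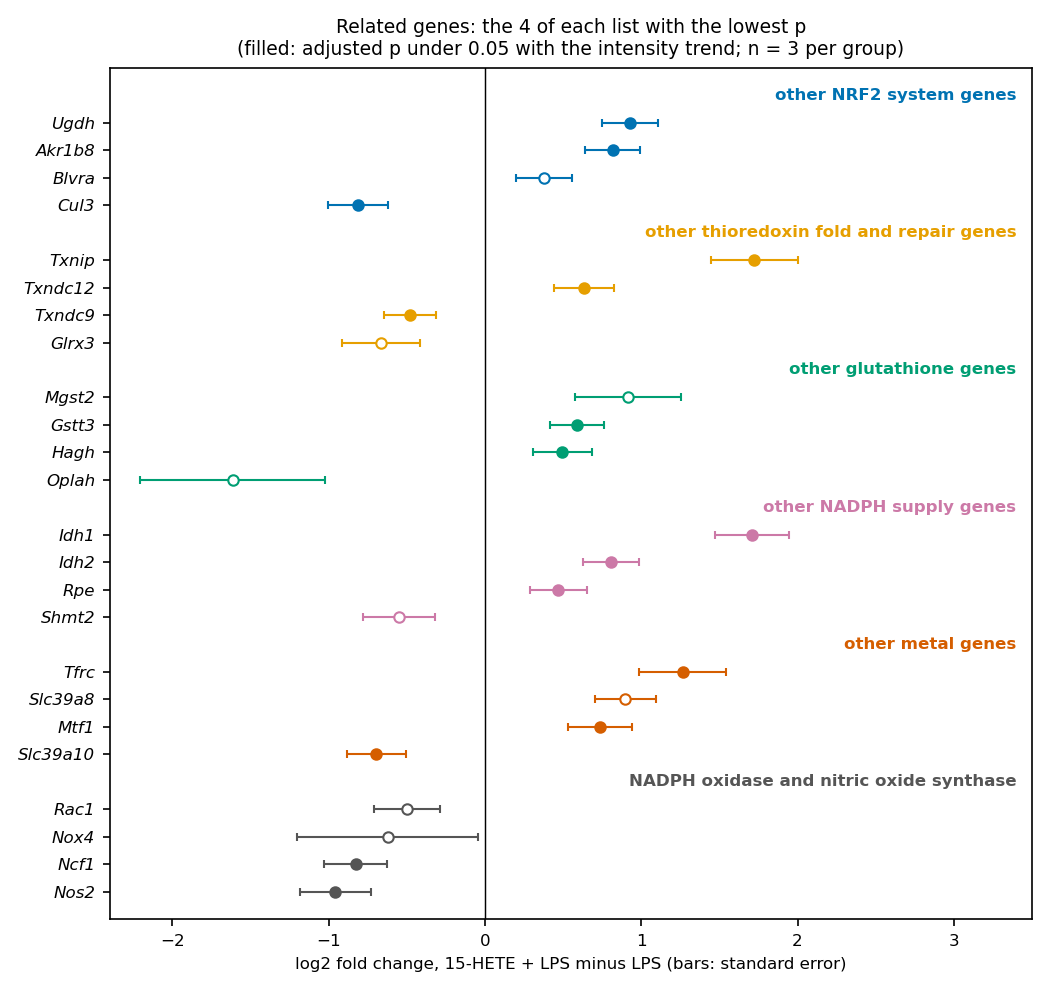
Log2 fold change (15-HETE + LPS minus LPS) of the 4 related genes with the lowest p in each of 6 lists. Points are estimates from 3 samples per group, bars are standard errors, and filled points passed limma with the intensity trend. In the NADPH oxidase and nitric oxide synthase list the 4 shown lie below 0, while of its 10 measured genes 3 were above 0 and 7 below.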

How the data were processed

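Total RNA was measured on mouse genome survey arrays, 1 chemiluminescent signal per probe and 3 samples per group. Linear intensities were produced and deposited by the authors after imaging, primary analysis with the array software and quantile normalization. Background correction is not given in the sources used here, and the filter on S/N and flags named in the methods is not part of the table, so every probe was tested. Quantile normalization gives all samples 1 distribution, with sorted values that differ by at most 0.224%. The number of arrays limits the precision.

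Genes were taken from the platform annotation, in which 14411 probes have 1 symbol, 247 have several and 18354 are unnamed. Values were turned to log2 and fitted on all 33012 probes by lmFit and eBayes (default prior, two-sided) of limma 3.58.1, under R 4.3.3, with Benjamini-Hochberg adjustment over all of them. The fold rule of the methods, 1.8-fold in 2 of 3 treated samples with an adjusted p of 0.025, was an alternative together with their t-test with unequal variances. Other alternatives were the intensity trend, a robust prior, median centring, cyclic loess, an offset of 50, probes above the median intensity, the mean of a gene's probes, a replicate block and each sample left out in turn. The fits with the trend and 1 sample left out were added after seeing the data.

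The genes, classes, pathway lists and alternatives were chosen with earlier results of these data known. All measured genes are named, with the value in every sample for those called with or without the trend and for every Prdx gene. Of each pathway list the 4 genes with the lowest p and those called by limma are named. For the list of oxidant sources all measured genes are named. Promoter sequences are from RefSeq (GRCm38.p6), whose coordinates are not those of the array probes. Treatments of the study other than LPS and 15-HETE + LPS were not analysed here.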

Additional observations from a re-analysis of the deposited data

How the results depend on the processing

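Of the 31 genes, 0 were called by limma without the trend under a robust prior, median centring, cyclic loess, an offset of 50 and with any 1 sample left out, where it called 0 probes of the array, and 0 by the t-test of the methods under both adjustments. Higher and lower calls among them were 5 and 2 with the intensity trend, 6 and 2 on probes above the median intensity, and 1 and 0 with the mean of a gene's probes. Over the array these settings called 1279 and 1638 of 33012 probes, 1207 and 1589 of 16506, and 362 and 227 of 13840 genes. With the trend and 1 sample left out, calls among the 31 genes were 11 and 5 without LPS replicate 1 and 3 and 1 without LPS replicate 2. They were 4 and 1 without LPS replicate 3, and 1 or 2 and 1 or 2 without a treated sample. Of all probes, 2595 and 2540 were called without LPS replicate 1, and 716 and 769 without LPS replicate 2. Without LPS replicate 3 the probe calls were 727 and 798. Without treated replicates 1, 2 and 3 they were 604 and 795, 535 and 688, and 624 and 938. No direction of a gene turned under another scaling. With 1 sample left out, 4 genes changed sign without LPS replicate 1, 2 without LPS replicate 2 and 1 without treated replicate 1, and none of these had been called.

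With 1 sample left out, the median log2 fold change of the 31 genes ran from 0.17 (without LPS replicate 1) to 0.27, that of the glutathione genes from 0.014 (without LPS replicate 1) to 0.19, and that of the superoxide and hydrogen peroxide genes from 0.53 (without LPS replicate 1, 0.56 without LPS replicate 2) to 0.75. The thioredoxin median ran from 0.56 to 0.65, the NADPH median from -0.39 to -0.06 and the metal median from 0.10 to 0.39, and the median of the NRF2 signalling and detoxification genes, -0.06 to 0.17, took both signs.

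Among the 99 other pathway genes, where 1 was higher and 0 lower, higher calls numbered 11 with the trend, 9 on probes above the median intensity, 6 with the mean of a gene's probes, 2 with the offset, and 0 with a robust prior, with either t-test and with any 1 sample left out. Lower calls numbered 7 with the trend and 6 on probes above the median intensity. With the trend and 1 sample left out there were 23 higher and 10 lower without LPS replicate 1, and 8 and 4 without LPS replicate 2. There were 7 and 5 without LPS replicate 3, and 5 and 4, 6 and 1, and 6 and 3 without treated replicates 1, 2 and 3. Calls over the whole array changed between these fits as well, by the counts given above. The cause of these changes was not tested. The replicate number as a block (replicate block) called 0 of the 31 genes, 0 of the pathway genes and 0 probes of the array. Deviations of same-numbered samples correlated at -0.0240, 0.00350 and 0.0237. With 3 replicates per group these values cannot decide whether same-numbered samples were paired. Why the call was lost with the block was not tested.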
